A study of Mus musculus with 2 samples.

Results

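The 37 genes described here belong to a list of S phase genes, whose products copy DNA or regulate, supply, package and repair it around replication. They are Mcm2 to Mcm7, Cdc6, Gmnn, Cdc45, Gins2, Pcna, Rfc2, Dscc1, Pola1, Prim1, Pold3, Fen1, Rrm1, Rrm2, Tyms, Uhrf1, Hells, Nasp, Chaf1b, Slbp, Atad2, Cdca7, Clspn, Tipin, Dtl, Ung, Exo1, Blm, Rad51ap1, Usp1, Wdr76 and E2f8. They were picked by symbol and not by a measured value, but with earlier results of these data known. Each of the 37 symbols occurred once among the 31053 genes of the count tables. All 37 passed the filter on low counts in every comparison.

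The cells came from dorsal root ganglia of 2-week-old Swiss mice, which were dissected, digested with enzymes, grown for 3 days and detached with trypsin. The ganglia hold sensory neurons, the satellite glia around their cell bodies, Schwann cells, fibroblasts and macrophages. All cells belong to 1 condition, with no injury and no treatment other than culture, and no label separates animals or sexes. The 2 libraries, A and B, ran on the same 10x chip with the 3′ v3 kit, and nothing in the sources used here says that they came from separate cultures.

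DNA replication starts when Cdc6 and its partners load the ring of Mcm2 to Mcm7 onto origins. Cdc45 and the GINS complex then turn the ring into a running helicase, and the clamp Pcna, its loaders and the polymerases copy the strands behind it. Ribonucleotide reductase and thymidylate synthase supply the building blocks, while histone chaperones package the new DNA. Many of these genes are transcribed around the start of S phase under E2F transcription factors, and differentiated neurons have left the cell cycle.

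Library A held 40355401 UMIs (unique molecular identifiers, each counting 1 captured transcript) in 5175 barcodes and library B 38945848 UMIs in 5773. After removal of barcodes with fewer than 200 genes or with mitochondrial UMIs above 10%, 5066 and 5664 cells remained. They comprised 9441 glia, 809 neurons, 397 fibroblasts and 83 macrophages, with a median per cell of 29530 and 27430 UMIs in neurons (A and B) against 4916 and 4539 in glia. Each class held its defining gene: Tubb3 stood at 2290 CPM (the gene's share of all UMIs of the group, in counts-per-million units) in neurons, Dcn at 4926 in fibroblasts and Lyz2 at 13520 in macrophages, while Sox10 stood between 174 and 267 CPM in the glial clusters. Of 8 endothelial and 8 pericyte markers 7 and 5 had UMIs in glia, with sums of 16.3 ± 0.0494 and 12.6 ± 1.90 CPM (SD, n = 2), and the defining genes Cldn5 and Rgs5 were at 0. In fibroblasts all 8 of each had UMIs, with higher sums of 92.4 ± 1.81 and 218 ± 47.4 CPM. Scrublet called only 2 doublets in A and 3 in B, so doublets were in effect not removed, and 8 barcodes occurred in both libraries.

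The glia were clustered without the 37 genes, so that none of them could draw a cluster, and clusters were named from other genes: 12 genes of DNA synthesis such as Ccne1, Cdt1 and Tk1, 20 genes of mitosis such as Top2a, Mki67 and Ccnb1, and 10 genes each of satellite glia and of repair Schwann cells. A first division gave 5 clusters, namely 2 replicating, 1 mitotic and 2 non-mitotic, and a finer one, used for most of what follows and chosen after seeing the data, gave 7. In the finer division 2746 resting satellite-like cells and 1845 resting repair-like cells were low in both lists, and 394 mitotic cells were high in mitosis genes alone. The cells high in DNA synthesis genes fell into early and later replicating ones. The 954 early replicating cells (10.1% ± 0.562 of glia, SD, n = 2 libraries) were low in mitosis genes, with 178 ± 11.5 CPM of Top2a. The later replicating cells, 1566 with high and 976 with low satellite genes, already held them, with 1515 ± 13.4 and 1437 ± 14.8 CPM of Top2a. The remaining 960 glia, led by Hist1h2bc and Hist1h4i, stayed unnamed. Early and later are names of clusters, not measured times, and 782 of the 954 early replicating cells lay in the non-mitotic satellite-like cluster of the coarse division.

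The promoters of 28 of the 37 genes could be read in the RefSeq table (build GRCm38.p6) over 250 bases before the start site. A search for 4 octamers bound by E2F factors, TTTGGCGC, TTTCCCGC, TTTGCCGC and TTTCGCGC, on both strands found at least 1 in 9 of the 28 genes (32.1%), against 2.16% of 27025 genes with such windows. The 9 were Cdc6, Cdca7, Dtl, Hells, Mcm5, Mcm6, Mcm7, Pola1 and Uhrf1. The CCAAT box (CCAAT on both strands) occurred in 67.9% of the 28 genes against 37.49% of all genes, and the element TTTGAA, known from promoters of mitosis genes, in 21.4% against 18.26%. These are matches of letters and not measured sites. Of the 9 genes with an E2F octamer 8 had their highest mean level in early replicating glia, against 6 of the 19 without one, and their median early to later ratio of CPM was 1.75 against 0.891. The genes were chosen for S phase, and no test was made.

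Shown here are 3 windows with an octamer and, for contrast, that of Rrm1, which has none. Pola1 is the octamer gene whose level did not peak in early replicating glia. Both Pola1 and Rrm1 were higher in later replicating glia, with early to later ratios of CPM of 0.761 and 0.555. They run 5′ to 3′ along the gene's strand, with E2F octamers (runs of 8 or more capitals, where octamers on both strands overlap) and CCAAT boxes (5 capitals, ATTGG on the other strand) in capitals. No annotated gene overlaps them. The Mcm6 window is chr1:128359706-128359955 on the minus strand, Mcm5 is chr8:75109259-75109508 on the plus strand, Pola1 is chrX:93632156-93632405 on the minus strand and Rrm1 is chr7:102441445-102441694 on the plus strand.
Mcm6: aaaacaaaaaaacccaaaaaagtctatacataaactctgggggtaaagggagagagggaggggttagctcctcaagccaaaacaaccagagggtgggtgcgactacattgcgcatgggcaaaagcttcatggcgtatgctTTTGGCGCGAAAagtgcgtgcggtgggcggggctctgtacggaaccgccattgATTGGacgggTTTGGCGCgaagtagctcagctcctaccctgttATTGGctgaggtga
Mcm5: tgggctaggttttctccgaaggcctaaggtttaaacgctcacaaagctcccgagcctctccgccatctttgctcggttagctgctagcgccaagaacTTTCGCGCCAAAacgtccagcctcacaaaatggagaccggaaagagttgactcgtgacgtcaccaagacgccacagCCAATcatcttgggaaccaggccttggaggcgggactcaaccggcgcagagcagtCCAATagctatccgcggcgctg
Pola1: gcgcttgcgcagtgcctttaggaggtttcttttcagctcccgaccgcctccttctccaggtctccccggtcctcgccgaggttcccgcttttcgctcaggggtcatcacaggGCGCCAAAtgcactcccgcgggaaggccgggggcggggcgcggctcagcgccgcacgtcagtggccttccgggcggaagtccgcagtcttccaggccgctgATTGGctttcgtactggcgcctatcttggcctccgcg
Rrm1: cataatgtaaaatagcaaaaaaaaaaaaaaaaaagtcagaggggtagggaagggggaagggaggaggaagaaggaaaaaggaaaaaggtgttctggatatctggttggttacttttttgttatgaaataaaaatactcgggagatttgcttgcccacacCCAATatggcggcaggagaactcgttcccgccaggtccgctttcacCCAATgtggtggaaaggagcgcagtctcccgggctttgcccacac
Counted back from the start site, the Mcm6 octamers lie at -110 to -103, -106 to -99 and -47 to -40, those of Mcm5 at -153 to -146 and -149 to -142, and that of Pola1 at -138 to -131.

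The 37 genes together were most abundant in the replicating glia and least abundant in neurons. Their summed level was 4311 and 4384 CPM (A and B) in early replicating glia, 4535 and 4547 in later replicating glia with high satellite genes and 4126 and 4157 in those with low satellite genes. Mitotic glia held 1551 and 1515 CPM and the unnamed cluster 884.9 and 897.4. Resting repair-like glia held 784.4 and 780.9 CPM, resting satellite-like glia 532.5 and 601.9, fibroblasts 917.3 and 718.7, macrophages 741.6 and 841.6, and neurons 352.1 and 378.0. The replicating clusters lay far above every other group in both libraries. The ranges of the 2 libraries overlapped among resting repair-like glia, fibroblasts and macrophages, so these groups were not ordered.

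**Figure D1:**
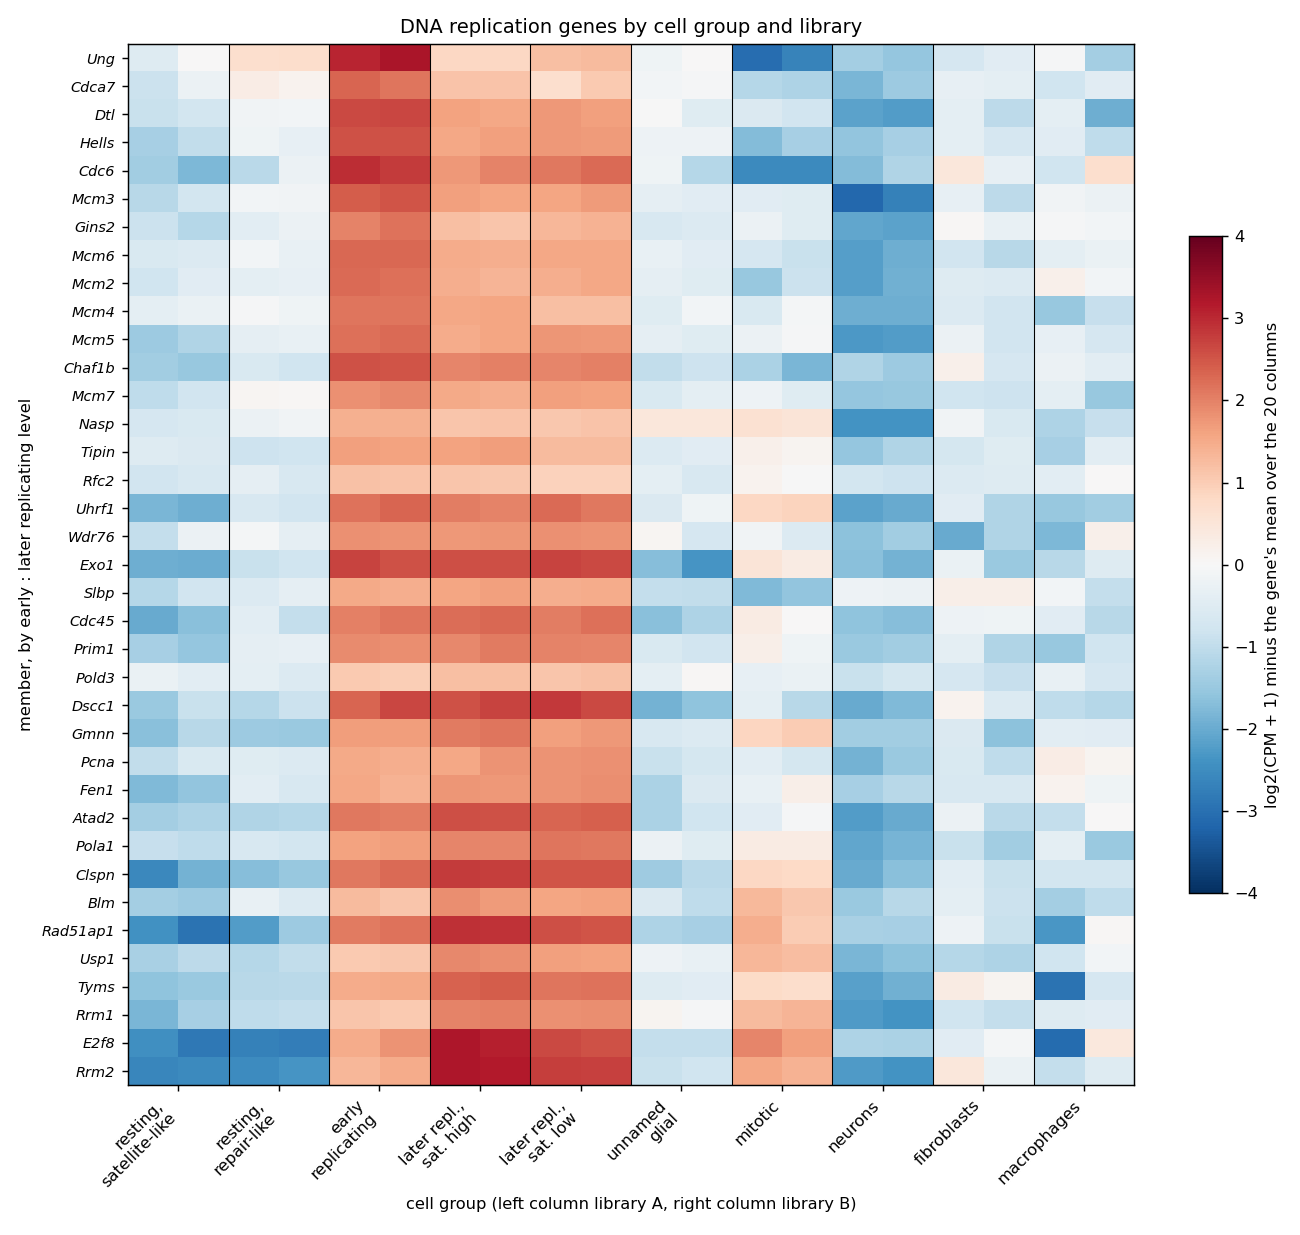
Level of each of the 37 genes (rows) in each cell group (columns, library A left and B right), as log2(CPM + 1) minus the gene's mean over the 20 columns. Genes are ordered by their early to later ratio, so that Ung, Cdca7 and Dtl at the top are deepest red in early replicating glia, and E2f8 and Rrm2 at the bottom in later replicating glia and still pale red in mitotic glia.

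Counts of genes per cell also set the replicating glia apart. After thinning every cell to 2000 UMIs, which left out 229 of 10730 cells (180 glia, 42 neurons and 7 fibroblasts), UMIs of at least 5 of the 37 genes were found in 83.15% of early replicating cells in A (exact 95% binomial interval 79.43 to 86.45) and 80.62% in B (76.81 to 84.04). The share was 82.8% ± 0.678 in later replicating cells with high satellite genes and 74.4% ± 1.10 in those with low satellite genes (SD, n = 2). It was 12.9% ± 0.611 in mitotic cells, 7.74% ± 0.268 in resting repair-like and 3.17% ± 1.02 in resting satellite-like cells. In the median replicating cell 7 or 8 of the 37 genes had a UMI, and in the median mitotic cell 3 (A) or 2 (B). Fibroblasts reached 7.38% ± 2.57, macrophages 2.44% ± 0.374 (1 cell in each library) and neurons 1.35% ± 0.890. The shares depended on the depth. At 4000 UMIs mitotic cells reached 57.5% ± 1.53 against 96.6% ± 1.99 of early replicating cells, and without thinning 93.1% ± 2.60 against 98.1% ± 0.230. Neurons reached 64.2% ± 3.47 without thinning, at their much higher UMI counts, against 50.5% ± 1.56 of all glia. Intervals cover counting error only.

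With the 5 clusters of the coarse division, the first comparison set cycling glia (replicating and mitotic) against non-mitotic glia. In edgeR, at an adjusted p of 0.05 over all genes tested, 31 of the 37 genes were higher in cycling glia, 3 were lower and 3 did not pass, with a median log2 fold change of 0.97 (all genes: 23.7% higher, 28.7% lower, median -0.04). Replicating and mitotic glia were then taken apart. Replicating glia had 36 of the 37 genes higher than non-mitotic glia (median 1.79, all genes 24.8% higher and 30.2% lower), with Ung as the exception (-0.21, not passed in DESeq2 or without the filter on low counts). Mitotic glia had 9 higher, 21 lower and 7 not passed (median -0.66, all genes 19.2% higher and 19.5% lower). Directly compared, all 37 genes were higher in replicating than in mitotic glia, by a median log2 fold change of 2.25 (all genes 18.5% higher and 19.4% lower, median -0.03). The non-mitotic clusters of this division contain most of the early replicating cells, so it says little about resting glia. Of its 1022 mitotic cells 628 lay in the unnamed cluster of the finer division and 394 in the mitotic one. With the finer division the Ung difference turned to 1.57 and the median in mitotic glia to 0.77, the same direction as in replicating glia. Which of these changes in the groups moved the values was not tested.

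With the early replicating cells apart, the replicating states differed from resting glia in all 37 genes. In both divisions the clusters were named by other DNA synthesis genes. They were drawn in part by 37 of the 58 other replication genes examined below. The direction of replicating against resting or non-mitotic glia was therefore largely set by the grouping. The early replicating cells were higher in 37 of 37 (median log2 fold change 2.84, all genes 15% higher and 12.6% lower), from Pold3, a subunit of polymerase delta, at 1.44 ± 0.13 (SE) to E2f8, an E2F that represses transcription. Mcm6 stood at 236.4 and 238.0 CPM (A and B) in early replicating glia, against 37.05 and 34.96 in resting glia, a log2 fold change of 2.70 ± 0.07. The later replicating cells were also higher in 37 of 37 (median 2.80, all genes 25.1% higher and 33.4% lower). The lowest was Ung, 0.86 ± 0.11. Much larger differences were seen for genes low in resting glia, such as Clspn, which protects stalled forks, at 4.74 ± 0.08 (6.997 CPM in resting glia). Rrm2, the inducible subunit of ribonucleotide reductase, stood at 5.73 ± 0.08 (5.066 CPM in resting glia). E2f8 had only 6 UMIs in all resting glia (4 in A and 2 in B). Its ratio of CPM over resting glia was 209 (exact 95% interval 95.6 to 570) in later, 80.5 (36.0 to 223) in early replicating and 89.6 (39.7 to 250) in mitotic glia. The clusters and the tests come from the same cells, and the p-values measure only the spread between these 2 libraries, which may be technical.

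Within the replicating glia, the genes that prepare origins and those that feed synthesis parted. Between early and later replicating cells, 14 of the 37 genes were higher in the early cells, 13 were lower and 10 did not pass (median log2 fold change -0.03, all genes 15% higher and 10.1% lower, median 0.03). With the clusters drawn from a random 50% of the UMIs and the genes counted in the other UMIs, 9 in place of 14 were higher. For comparisons of the finer division, here and below, these clusters were drawn at resolution 0.50 in place of 0.30. The part of the changed resolution in lost calls was not tested. The highest mean level lay in the early cluster for 17 genes, in the later cluster with high satellite genes for 15 and in that with low satellite genes for 5, and in 32 of 37 genes both libraries had it in the same cluster.

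All 6 MCM genes were higher in the early cells, with a median log2 fold change of 0.73 and a range of 0.28 to 0.79. Mcm3 stood at 186.6 and 200.7 CPM early and 107.1 and 109.5 later, 0.79 ± 0.06. For Mcm7, which lies over the microRNA genes Mir25 and Mir93 on the same strand, the difference was 0.28 ± 0.07, and it did not pass in DESeq2 or with the clusters drawn from 50% of the UMIs. Among the licensing and activation genes, Cdc6, the loader of the MCM ring, stood at 44.80 and 40.06 CPM early against 21.51 and 24.70 later, 0.84 ± 0.13. Gins2 of the GINS complex moved in the same direction, 0.78 ± 0.07. Gmnn, which encodes geminin and blocks a second loading of origins, went the other way, with 193.9 and 194.0 CPM early and 225.6 and 237.0 later, -0.28 ± 0.05. Cdc45 did not pass, with 44.03 and 48.69 CPM early and 48.60 and 51.93 later.

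The largest difference belonged to Ung (chromosome 5, 114130386 to 114139323, plus strand, GRCm38), the uracil DNA glycosylase that removes uracil from DNA. It stood at 110.1 and 127.2 CPM in the early and 26.33 and 26.92 CPM in the later replicating cells, a log2 fold change of 2.12 ± 0.09, and at 14.25 and 16.57 CPM in resting glia. Cdca7 and Hells, which act together in chromatin remodelling, came next with Dtl, an adaptor for the degradation of licensing factors. Their log2 fold changes were 1.23 ± 0.13, 0.86 ± 0.07 and 0.98 ± 0.08. The histone chaperone genes Chaf1b (0.50 ± 0.09) and Nasp (0.26 ± 0.05) were also higher early, but not with the clusters drawn from 50% of the UMIs.

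All 3 nucleotide supply genes were lower in the early cells. Rrm2 (chromosome 12, 24708241 to 24714146, plus strand, GRCm38) stood at 86.13 and 95.82 CPM early and at 277.1 and 267.0 later, -1.61 ± 0.06, so that the later level was about 3 times the early one in both libraries. Rrm1, the other subunit of ribonucleotide reductase, differed by -0.89 ± 0.06, and Tyms, thymidylate synthase, by -0.84 ± 0.06. A pseudogene, Tyms-ps, is annotated, so a split of Tyms reads by the counting is not excluded. The repressor E2f8 was at 22.79 and 28.27 CPM early and 64.92 and 60.44 later, -1.31 ± 0.12. The 9 repair and fork genes had no shared direction (median -0.03), with 4 lower early and 2, Ung and Dtl, higher. Among the lower were Usp1, a deubiquitinase of Pcna (-0.74 ± 0.05), Rad51ap1, a gene of recombination repair (-0.66 ± 0.08), and Clspn (-0.50 ± 0.06).

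Clamp and polymerase genes differed less. None of the 7 was higher early and 3 were lower: Pola1, the primer-making polymerase, Fen1, which trims Okazaki fragments, and Pcna, with 61.80 and 60.08 CPM early against 69.85 and 76.00 later (-0.30 ± 0.09, not passed in DESeq2). The pseudogenes Pcna-ps1 and Pcna-ps2 are annotated, so its counts are uncertain. Slbp, whose protein binds the stem loop of histone mRNAs, stood at 163.4 and 158.6 CPM early and 165.4 and 170.3 later, a log2 fold change of -0.10 ± 0.06 that did not pass. It did pass, at -0.28, with the clusters drawn from 50% of the UMIs. The other genes lower early were Atad2 and Blm, and those that did not pass were Tipin, Rfc2, Uhrf1, Wdr76, Exo1, Prim1, Pold3, Dscc1, Cdc45 and Slbp.

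**Figure D2:**
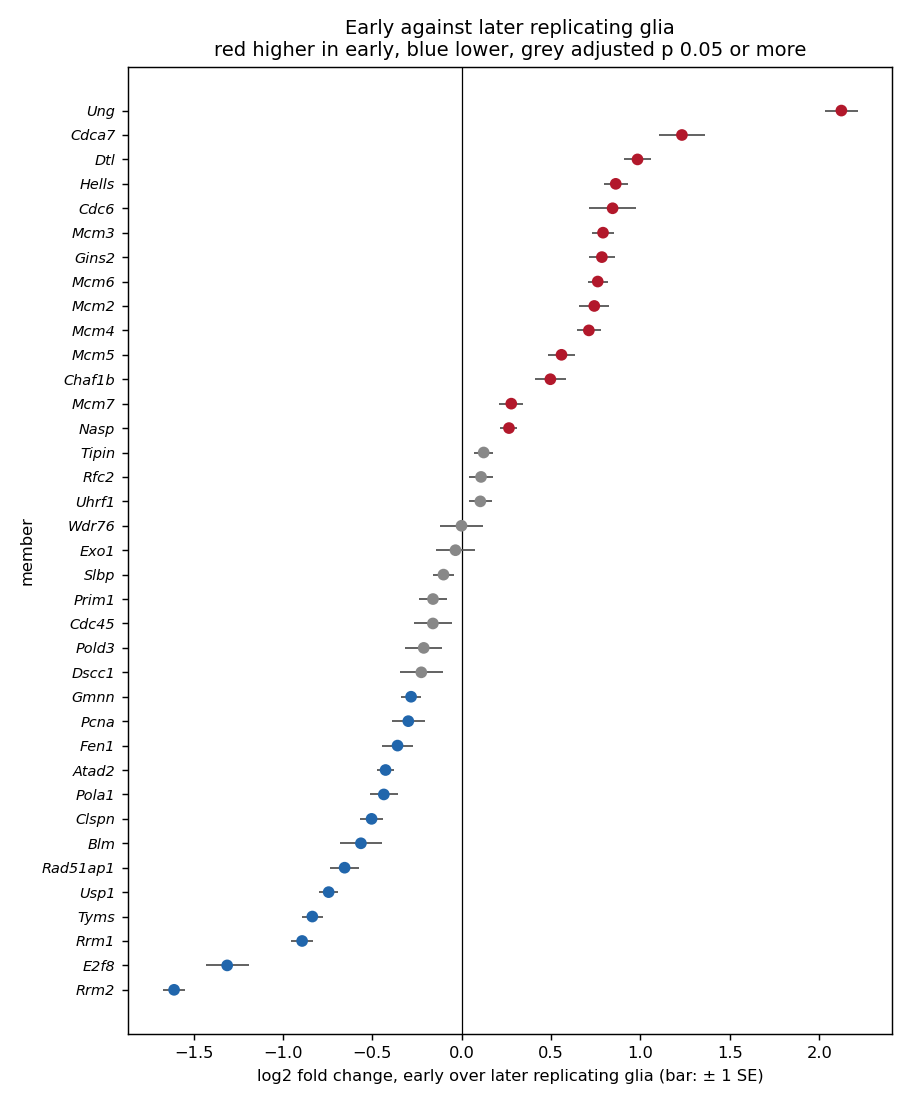
Log2 fold change of each of the 37 genes between early and later replicating glia (x axis, bars ± 1 SE), red where higher in early cells, blue where lower and grey where the adjusted p was 0.05 or more. Ung stands apart at 2.12 and Rrm2 lies lowest at -1.61, while the 6 MCM genes lie between 0.28 and 0.79.

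The share of cells with a UMI was compared for the genes at both ends. After thinning, Ung was found in 21.81% and 19.79% of early replicating cells (A and B), against 5.905% and 4.348% of later cells with high satellite genes. Rrm2 was found in 11.66% and 16.08% of early cells against 50.58% and 43.73% of those later cells. In neurons, which do not divide, the shares were 1.932% and 1.133% for Rrm2 and 0.9662% and 1.700% for Ung, whose product also acts in mitochondria outside S phase.

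**Figure D3:**
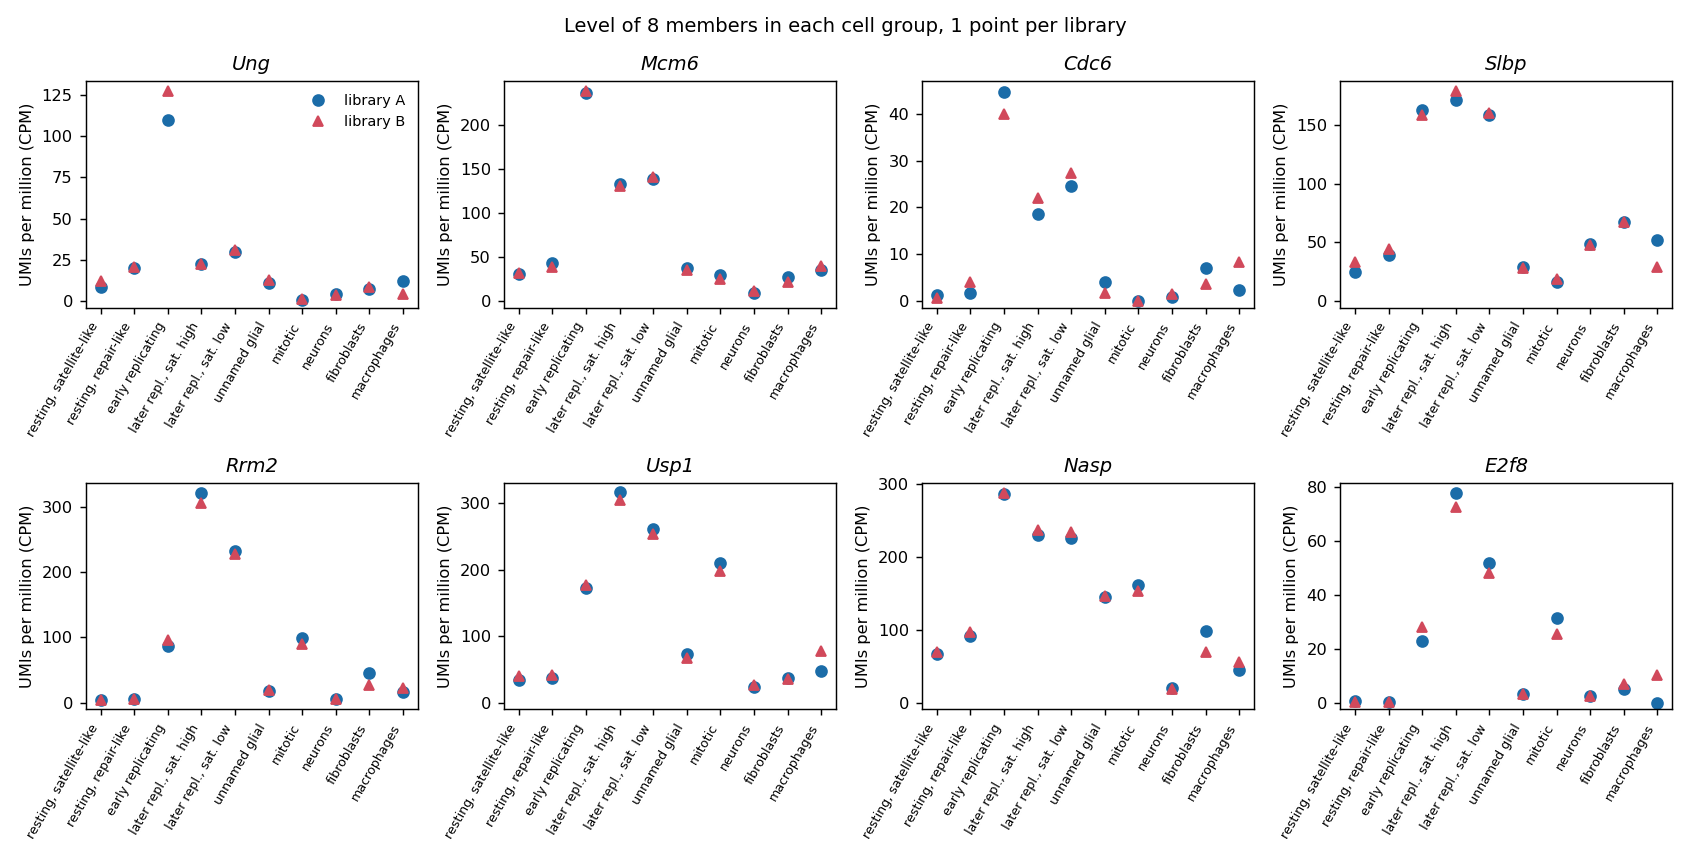
Level of 8 genes in CPM (y axis, linear, 1 scale per gene) in the 10 cell groups, with circles for library A and triangles for B. Ung, Mcm6 and Cdc6 are highest in early replicating glia, Rrm2, Usp1 and E2f8 in later replicating glia with high satellite genes, and Slbp is lowest in mitotic glia while neurons and fibroblasts lie above resting satellite-like glia.

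Mitotic glia held these transcripts at very different shares of the later replicating level. All 37 genes were higher in later replicating than in mitotic glia (median log2 fold change 1.86, all genes 12.3% higher and 15.1% lower). Yet 20 were still higher in mitotic than in resting glia, 7 were lower and 10 did not pass (median 0.77, all genes 20.6% higher and 18.7% lower). With the clusters drawn from 50% of the UMIs only 2 in place of 7 were lower.

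Cdc6 was not detected, with 0 UMIs among 3524638 in mitotic glia, where a count of 0 allows up to 0.851 CPM (3 counts over both libraries). It was therefore at least 26.2-fold higher in later and at least 49.9-fold higher in early replicating glia. Ung had 3 UMIs in mitotic glia (1 in A, 2 in B), and its ratio of CPM between resting and mitotic glia was 16.9 (exact 95% interval 5.71 to 82.3). Slbp stood at 16.10 and 18.41 CPM in mitotic glia, against 165.4 and 170.3 in later replicating and 32.07 and 38.54 in resting glia. It was 3.27 ± 0.13 lower than in later replicating glia on the log2 scale and -0.99 ± 0.18 against resting glia, which did not pass with the clusters drawn from 50% of the UMIs. Hells (-0.86 ± 0.25 against resting glia), Cdca7, Mcm2 and Mcm6 were the other genes below the resting level.

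Other genes lay closer to the later replicating level. Usp1 stood at 209.8 and 197.1 CPM in mitotic glia, 71.7% of its later replicating level, and differed from resting glia by 2.43 ± 0.08 on the log2 scale. Blm, a helicase that resolves joined DNA molecules, stood at 70.1%, Nasp at 67.9% and Rrm1 at 65.3%. Rrm1 was at 134.1 and 141.8 CPM against 20.65 and 24.68 in resting glia, 2.65 ± 0.10. Rrm2 stood at 34.6% but exceeded its low resting level by 4.22 ± 0.15, with 98.96 and 89.32 CPM against 4.826 and 5.305. Gmnn, whose protein is present until mitosis, was higher than in resting glia by 2.44 ± 0.11. A pseudogene, Nasp-ps1, is annotated, so Nasp counts are uncertain.

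**Figure D4:**
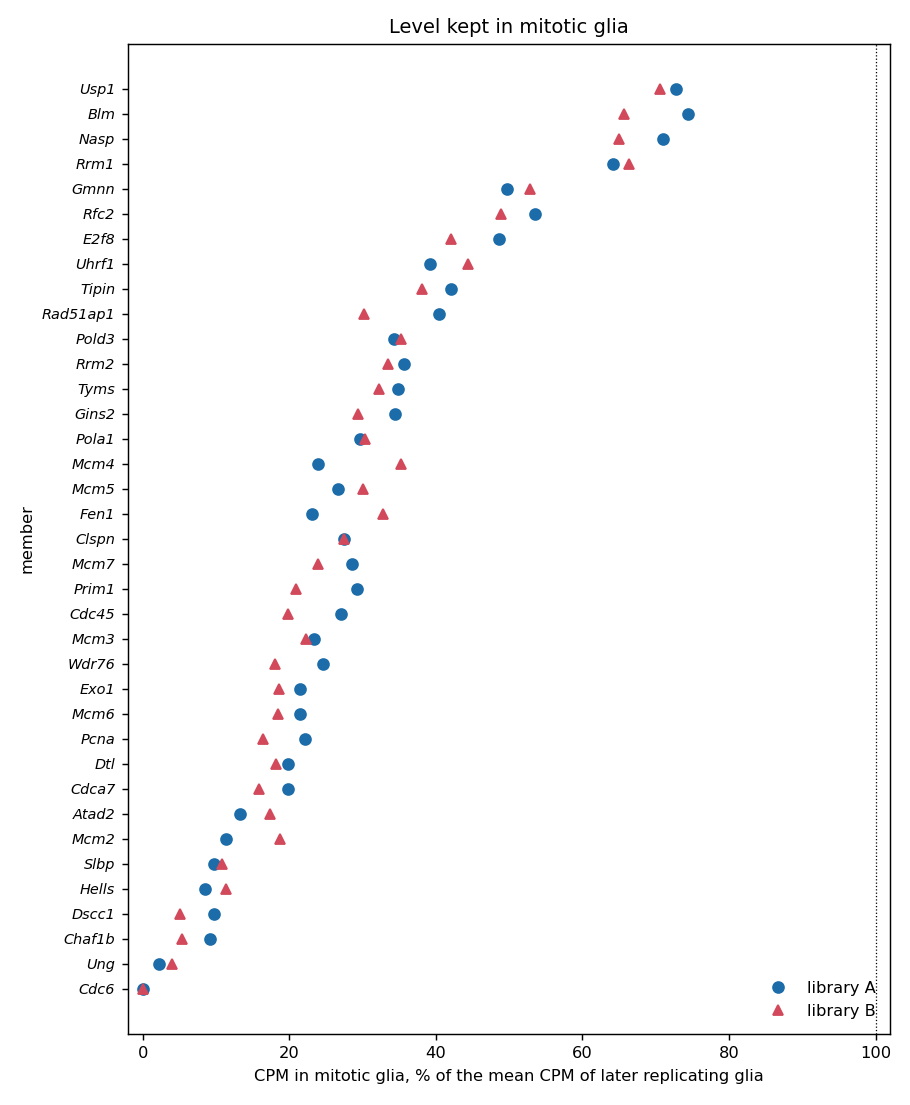
CPM of each of the 37 genes in mitotic glia as a percentage of its mean CPM in later replicating glia (x axis), with circles for library A and triangles for B and a dotted line at 100%. The genes run from Cdc6 at 0 and Ung at 3.15% to Usp1 at 71.7%, and every gene lies below 100% in both libraries.

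Most genes that were higher in the later replicating cells were also above the resting level in mitotic glia. Of the 13 genes lower in early than in later replicating cells, 12 were higher in mitotic than in resting glia (92.3% of the 13 and 60% of the 20), while Pcna did not pass. Of the 14 higher early, 6 were lower in mitotic than in resting glia (42.9% of the 14 and 85.7% of the 7), namely Cdc6, Cdca7, Hells, Mcm2, Mcm6 and Ung, and only Mcm5 and Nasp were higher. The 2 comparisons share no cell group. Mitotic cells were deeper (medians of 8903 and 8259 UMIs) than early (4960 and 4711) and later replicating cells (6616 to 7428), and the part of depth in these differences was not tested.

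Satellite-like and repair-like resting glia differed in these genes, but the direction turned with the clustering. In the finer division none of the 37 was higher in satellite-like cells, 25 were lower and 12 did not pass (median log2 fold change -0.68, all genes 14.3% higher and 18.6% lower). Mcm7 stood at 18.30 and 22.02 CPM in satellite-like and 39.60 and 38.91 in repair-like cells, -1.04 ± 0.13. Uhrf1, which recognises half-methylated DNA behind the fork, differed by -1.38 ± 0.20 and Nasp by -0.55 ± 0.08. With the clusters drawn from 50% of the UMIs 7 were lower, and Uhrf1 and Nasp were not among the calls. In the coarse division, where 782 early replicating cells counted as satellite-like, 32 were instead higher and none lower (median 0.56, all genes 18.6% higher and 13.6% lower), while clusters drawn from 50% of the UMIs gave none higher and 10 lower. The summed satellite genes reached 22390 CPM in resting satellite-like against 8538 in repair-like cells, and those of mitosis 65.6 against 125. The satellite gene sum was 24140 ± 2518 CPM in macrophages, so it is not particular to satellite glia.

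Among the replicating clusters of the coarse division the satellite genes went with smaller differences. Of the 37 genes 10 were higher in the cluster with high satellite genes, 5 were lower and 22 did not pass (median -0.03, all genes 12.7% higher and 12.1% lower). The 10 lay between 0.12 for Atad2 and 0.54 for E2f8 on the log2 scale and also included Rrm2 (0.37) and Gmnn (0.36), and the 5 included Mcm5 (-0.25) and Pola1 (-0.24). DESeq2 called 4 higher and none lower.

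Neurons had the lowest levels. Against the non-mitotic glia of the coarse division, 35 of the 37 genes were lower in neurons and none was higher (median log2 fold change -1.93, all genes 36.8% higher and 42.4% lower, median -0.08). Against the resting glia of the finer division 24 were lower, 3 were higher and 10 did not pass (median -0.77, all genes 35.9% higher and 42.6% lower). The lowest was Mcm3, with 3.013 and 4.400 CPM in neurons against 23.61 and 25.67 in resting glia, -2.64 ± 0.16, and Nasp followed at -1.98 ± 0.08. All 6 MCM genes were lower. With another scaling (RLE) the median of all genes in the finer comparison moved from -0.10 to 0.03.

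Expressed as a share of the level in all glia, 34 of the 37 genes lay between 4.08% and 21.7% in neurons. The median over the 37 was 11.6%, against 11.3% for 8 markers of glia (7.02 to 95.7%) and 6.23% for 20 genes of mitosis (4.52 to 11.7%). Glial markers were thus present in neurons at a like share, and the part of free RNA or of glia captured with a neuron was not tested.

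Slbp, Rfc2 and Pold3 lay above the others. Slbp was at 49.07 and 47.96 CPM in neurons against 95.39 and 95.97 in all glia (50.7% ± 1.04), and it was higher than in resting glia by 0.53 ± 0.08. After thinning, 11.11% and 8.782% of neurons had a UMI of Slbp, against 4.032% and 6.319% of resting satellite-like and 7.682% and 8.351% of repair-like cells. Rfc2, a clamp loader subunit, stood at 42.2% ± 0.229 and did not pass against resting glia (-0.13 ± 0.08), with 34.61 and 32.12 CPM in neurons. Pold3 stood at 37.9% ± 4.14 and was -0.36 ± 0.12 against resting glia, a call lost in DESeq2, with RLE scaling and without the filter. The other 2 genes above resting glia were low in absolute terms. Rad51ap1 had 5.940 and 5.720 CPM in neurons against 2.397 and 3.207 in resting glia (1.21 ± 0.25), and E2f8 had 53 UMIs in neurons, 8.08 times the resting CPM (3.48 to 23.0).

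**Figure D5:**
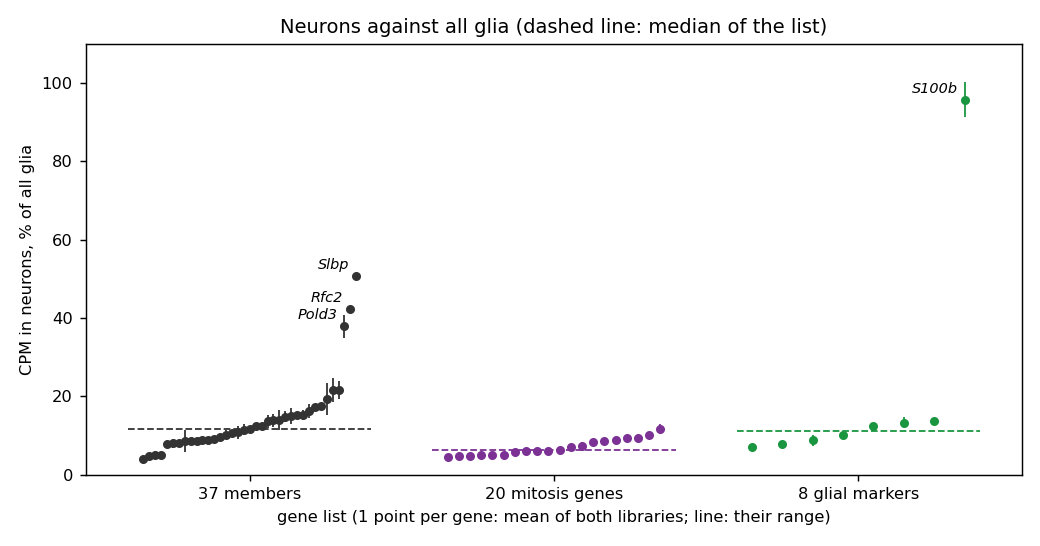
CPM in neurons as a percentage of CPM in all glia for the 37 genes, 20 genes of mitosis and 8 glial markers, with 1 point per gene at the mean of both libraries, a line over their range and a dashed line at the median of each list. Slbp, Rfc2 and Pold3 stand above the other 34 genes, and the medians of the 37 genes and of the glial markers are 11.6% and 11.3%.

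Fibroblasts held some replication genes above resting glia, chiefly in library A. Against resting glia of the finer division 21 of the 37 were higher, 2 were lower and 14 did not pass (median log2 fold change 0.59, all genes 25.2% higher and 27% lower). In plain CPM the median was 0.46 in A and -0.02 in B, and 18 of the 23 calls had the same direction in both. Top2a was 119 CPM in A and 47.2 in B. Fibroblasts were not divided by cell cycle state, whereas resting glia were named as low in DNA synthesis and mitosis genes. Mki67 had a UMI in 5.1% ± 3.3 of fibroblasts after thinning. In resting repair-like and satellite-like cells it was 1.31% and 0.818%. The 37 genes summed to 818 ± 140 CPM in fibroblasts, against 2498 ± 50.2 in all glia. The part of dividing fibroblasts was not tested. Rrm2 stood at 46.00 and 27.51 CPM against 4.826 and 5.305, 3.07 ± 0.19, and Tyms at 54.83 and 47.64 against 16.73 and 17.71, 1.83 ± 0.14. Slbp was alike in both libraries, 67.84 and 67.76 CPM, and higher by 1.20 ± 0.11. The 2 lower were Wdr76 (-1.12 ± 0.38) and Ung (-0.61 ± 0.24), and Ung did not pass in DESeq2, with RLE scaling or without the filter. Against the non-mitotic glia of the coarse division the picture turned, with 4 higher and 22 lower (median -0.43, all genes 25.1% higher and 26.1% lower).

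Macrophages, with 37 and 46 cells, gave the least precise values. They too were not divided by cell cycle state, and 13.8% ± 7.23 had a UMI of Mki67 after thinning. The 37 genes summed to 792 ± 70.7 CPM, against 2498 ± 50.2 in all glia, and the part of dividing macrophages was not tested. Of the 37 genes 12 were higher than in resting glia, none was lower and 25 did not pass (median 0.64, all genes 14.4% higher and 15.6% lower), and 10 of the 12 had the same direction in both libraries in plain CPM. In plain CPM the median was only 0.31 in A and 0.26 in B. Both macrophage libraries lay above both resting ones for 16 of the 37 genes and below both for 7, which was not counted over all genes. Rrm1 stood at 38.03 and 39.58 CPM against 20.65 and 24.68 in resting glia (1.10 ± 0.28). Pcna was at 26.15 and 22.91 CPM against 12.36 and 13.92 (1.20 ± 0.36), and Fen1 at 26.15 and 20.83 against 11.79 and 10.97 (1.46 ± 0.38). For these 3 genes both macrophage libraries lay above both resting ones, as they did for Usp1, with 47.54 and 77.07 CPM against 35.17 and 40.91 (1.03 ± 0.22). E2f8 had 0 UMIs in A and 5 in B. Against the non-mitotic glia of the coarse division none was higher and 7 were lower (median -0.42, all genes 13.8% higher and 14% lower). The balance over all genes depended on the tool. Against the resting glia of the finer division 1426 genes were higher and 1548 lower in edgeR but 1645 and 975 in DESeq2, and against the non-mitotic glia 1396 and 1416 but 1607 and 966. The 8 glial markers summed to 1186 ± 484 CPM in macrophages, 387 ± 39.9 in fibroblasts and 667 ± 17.5 in neurons, against 5608 ± 64.6 in glia, and their part in these levels was not tested.

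Other replication genes were examined from a separate list of 58 genes. Many of these had drawn the clusters used so far, so the glia were clustered again with all listed replication and mitosis genes held out. This gave other groups than above, with 2334 replicating, 1182 mitotic, 3641 non-mitotic satellite-like and 2284 non-mitotic repair-like cells, and the counts and log2 fold changes of these genes refer to them. No separate early replicating cluster formed, and where those cells fell was not examined. The non-mitotic glia are therefore not the resting glia of the finer division. In replicating against mitotic glia 50 were higher, 1 was lower and 7 did not pass (all genes 18.9% higher and 16.9% lower). Leaving out the 12 that named clusters, 38 of 46 were higher. The largest differences were those of the cyclin genes Ccne2 (6.02 on the log2 scale) and Ccne1 (5.13), which drive entry into S phase, and of the licensing factor Cdt1 (3.87), all 3 among the genes that named clusters. The single lower gene was Rnaseh2c (-0.16), a subunit of a ribonuclease. In replicating against non-mitotic glia 54 were higher and 2 lower (28.8% and 26.1% of all genes), and 42 and 2 of the 46 that named no cluster. Of the latter E2f7 (3.53), the closest relative of E2f8, and Chtf18 (3.44), a clamp loader subunit, were well above non-mitotic glia, and Tk1 (3.98) was one of the naming genes, while Pold4 (-0.79) and Rrm2b (-0.53) were lower.

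Mitotic glia showed both directions in this list, with 17 of 58 higher and 22 lower than in non-mitotic glia (20.4% and 17.8% of all genes). Without the naming genes the balance turned to 16 higher and 14 lower of 46 (median 0.13 against -0.08 for all 58). Dbf4, the activator of the kinase Cdc7, was higher by 3.52, and stood at 105.0 and 118.9 CPM in mitotic against 10.62 and 9.486 in non-mitotic glia of the coarse division. Asf1b (1.86), a histone chaperone gene, and the naming gene Tk1 (1.89) were also higher. The transcription factor gene E2f1 (-2.14) and the clamp loader gene Rfc3 (-1.18) were among the most reduced. In neurons 4 of 57 were higher and 45 lower (37% and 42.1% of all genes), and 4 and 34 of the 45 without naming genes. Rrm2b, a ribonucleotide reductase subunit used outside S phase, was higher by 1.28, with 55.18 and 60.06 CPM in neurons against 26.58 and 23.22 in the non-mitotic glia of the coarse division, as were Pole4 (0.78) and Pold4 (0.60). Rfc4 (-1.89) and the naming gene Chaf1a (-2.04) were among the lowest. In cycling glia 44 of 58 were higher and 4 lower (26.2% and 23.7% of all genes), or 35 and 3 of 46 without the naming genes. In fibroblasts 6 of 57 were higher and 28 lower than in non-mitotic glia (24.8% and 25.5%), or 3 and 20 of 45. For the 37 genes the balance in fibroblasts and in mitotic glia turned with the finer division. The counts of this list are against non-mitotic and not resting glia. In macrophages 2 were higher and 7 lower (13.5% and 13%), or 2 and 6 of 45, and in satellite-like against repair-like glia none higher and 7 lower (17.4% and 14.9%).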

How the data were processed

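Cultured mouse dorsal root ganglion cells were profiled in 2 10x libraries. The deposited matrices hold unnormalised UMI counts, made, per the labels, with Cell Ranger 3.0.2 on mm10. The table headers name another release. Here, barcodes with under 200 genes or over 10% mitochondrial UMIs were dropped, and the other cells (5066 and 5664, median 5270 and 4826 UMIs) were clustered in Seurat 5.3.0 (2000 variable genes without the 37, 20 components, resolution 0.18, finer 0.30). Counts were summed per library and cell group and tested with edgeR 4.0.16 (quasi-likelihood, TMM scaling, filterByExpr, library as a block, Benjamini-Hochberg over all genes that did not draw clusters, adjusted p under 0.05). The standard error is the log2 fold change divided by the root of F. With 2 libraries 4 (glia) or 7 (all classes) residual degrees of freedom remained in the coarse division, and more in the finer one, which has more groups. On simulated counts for cycling against non-mitotic glia (11738 genes) 92.5% of genes changed 1.5-fold were recovered, and for neurons (13378 genes) 80.6%. The members and lists were chosen with earlier results of these data known. All 37 members were named or counted. Of the other replication genes, at most 3 per direction were named, those with the largest change among genes at 20 CPM or more that passed and had 1 direction in A and B. Alternatives were DESeq2 1.42.0, RLE scaling, no filter, no block, other mitochondrial limits and resolutions, clusters from 50% of the UMIs, removal of the 5% highest Scrublet scores and each library left out. The finer division, its comparisons and the score limits behind the cluster names were set after seeing the data. Promoters came from RefSeq (GRCm38.p6), gene overlaps from GENCODE (GRCm38). The 8 barcodes seen in both libraries were kept. No proteins were used here, and some genes that the rule names are not reported here.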

Additional observations from a re-analysis of the deposited data

How the results depend on the processing

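The counts of replication genes that passed depended more on how glia were divided than on the test. At resolution 0.30 in place of 0.18, 782 satellite-like and 117 repair-like non-mitotic cells became early replicating, while another 171 satellite-like and 160 repair-like non-mitotic cells and 628 of the 1022 mitotic cells joined the unnamed cluster, and which of these shifts moved the values was not tested. The median log2 fold change turned to 0.59 in fibroblasts (21 higher, 2 lower), 0.64 in macrophages (12 higher, 0 lower), 0.77 in mitotic glia (20 higher, 7 lower) and -0.68 for satellite-like against repair-like glia (0 higher, 25 lower), and Ung in replicating glia turned to 1.57. At this resolution neurons had 3 higher, cycling and replicating glia 0 lower, and replicating satellite-like glia 8 lower. For satellite-like against repair-like glia the counts higher and lower were 2 and 4 with all listed replication and mitosis genes held out (median -0.054). They were 0 and 10 with clusters from 50% of the UMIs (-0.29) and 2 and 14 at resolution 0.10 (-0.24). At a mitochondrial limit of 20% they were 7 and 2, with 2 higher at 5%. Over all genes these settings gave, in the same order, 1817 and 1555 of 10445, 1214 and 1067 of 9655, and 1787 and 1628 of 10787. The limits gave 1860 and 1481 of 10293 at 20% and 351 and 446 of 7746 at 5%. In cycling glia 19 were higher and 12 lower at a limit of 20% (all genes 1755 and 2398 of 10293). With the listed genes held out, in DESeq2, at resolution 0.10 and without the 5% highest Scrublet scores, 9, 1, 1 and 1 were lower. Over all genes 2474, 1828, 2776 and 3055 were lower there. At a limit of 5%, 3 were lower in macrophages and 10 in mitotic glia. This limit kept far fewer glia, namely 410 replicating, 230 mitotic, 361 satellite-like and 350 repair-like cells. Over all genes 1080 were higher and 811 lower of 8132 in macrophages, and 710 and 670 of 7746 in mitotic glia. In replicating against non-mitotic glia 0 were lower in DESeq2 and without the filter. Between the replicating clusters DESeq2 gave 4 higher and 0 lower, no filter 0 lower and removal of the highest Scrublet scores 1 lower.

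In the finer division, the clusters from 50% of the UMIs were drawn at resolution 0.50. With these, 9 genes were higher in early than in later replicating glia, 2 lower in mitotic glia and 7 lower in satellite-like glia. In fibroblasts 13 were higher and 1 lower, and DESeq2, RLE scaling and no filter also gave 1 lower. With either library left out the fibroblast median ranged from -0.018 (without A) to 0.46 (without B). Leaving out a library left no residual degrees of freedom, so only values were computed. Of 422 alternative values of the 58 named differences 402 were counted as unchanged, 18 lost the call, 1 gained it and 1 reversed. Values with a library left out carry no call. They were counted as unchanged unless a called difference reversed, and direction was not checked for differences that did not pass. Over all genes DESeq2 called fewer differences among glia, with the edgeR counts higher and lower in brackets. In the coarse division it called 1566 and 1828 (2389 and 2888) for cycling, 1623 and 1911 (2500 and 3039) for replicating and 1094 and 1041 (1937 and 1961) for mitotic against non-mitotic glia, 1082 and 1017 (1866 and 1950) for replicating against mitotic, 685 and 700 (1879 and 1367) for satellite-like against repair-like and 513 and 481 (1276 and 1220) between the replicating clusters. In the finer division it called 761 and 549 (1490 and 1249) for early, 1777 and 2094 (2494 and 3321) for later replicating and 1401 and 1214 (2046 and 1858) for mitotic against resting glia, 670 and 500 (1490 and 1007) for early against later, 722 and 696 (1220 and 1500) for later against mitotic, which without the filter were 1394 and 983, and 685 and 826 (1417 and 1847) for satellite-like against repair-like. With RLE scaling the median of all genes in macrophages moved from -0.16 to -0.05 in the finer division. Without the replicate block, the library number being all that the groups share, the median for later replicating against mitotic glia was 1.855 against 1.856 with it, and counts of calls among the 37 genes moved by at most 1. Thinning to 1000 or 4000 UMIs, or not at all, gave 15.79%, 60.78% and 50.46% of glia with at least 5 of the genes, 0.1389%, 6.363% and 64.22% of neurons, 2.273%, 11.76% and 28.12% of fibroblasts, and 1.087%, 13.36% and 39.84% of macrophages. No mitotic cluster formed at resolution 0.10. With 900768 UMIs in macrophages, 3 counts correspond to several CPM, so low genes were not resolved there.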
